A study of Mus musculus with 9 samples.

Results

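Interneuron marker genes were examined as a set of 10: Gad1, Gad2, Slc32a1, Pvalb, Sst, Vip, Npy, Calb2, Lhx6 and Reln. They were picked by name as known markers among the 31804 genes of the deposited count table, by a rule that uses no measured value, though with earlier results of these data known. All 10 were found and all 10 passed the filter on low counts, which kept 16438 genes. Polyadenylated RNA was sequenced from hippocampal tissue of adult male mice of the inbred strain C57BL/6NCrl, 3 animals in each of 3 groups. Knock-down group A received a recombinant adeno-associated virus (rAAV) with a short hairpin RNA, shRNA A, against Camta1. Knock-down group B received an rAAV with shRNA B, another sequence against Camta1, and the control group an rAAV with a non-targeting shRNA, so every animal carried virus and hairpin. Animals were injected at 8 weeks of age, in the dorsal hippocampus, and the area marked by mCherry, a red fluorescent protein, was dissected 3 weeks afterwards. The tissue holds neurons, glia and vessels, and the labels give neither the promoter that drives the hairpin nor the share of interneurons that took up virus.

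Inhibitory interneurons are a minority of hippocampal neurons and release the transmitter gamma-aminobutyric acid (GABA). They make GABA from glutamate with the decarboxylases GAD67 and GAD65, encoded by Gad1 and Gad2, and load it into vesicles with the transporter encoded by Slc32a1. Their subtypes are told apart by the calcium-binding proteins parvalbumin and calretinin (Pvalb, Calb2), by the neuropeptides somatostatin, vasoactive intestinal peptide and neuropeptide Y (Sst, Vip, Npy), and by the secreted glycoprotein reelin (Reln). Lhx6 is a LIM-homeodomain transcription factor of interneurons born in the medial ganglionic eminence (MGE), from which most Pvalb and Sst cells come, while Vip cells and many Calb2 cells come from the caudal ganglionic eminence (CGE). Camta1 encodes a calmodulin-binding transcription activator. The question here is whether the transcripts of inhibitory neurons differed between the knock-down groups and control.

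Camta1 itself was measured at 230.5, 174 and 254 CPM (counts scaled to a common library size) in the shRNA A libraries, at 239, 145 and 266 CPM in the shRNA B libraries and at 427, 455 and 442 CPM in the control libraries. All 6 knock-down libraries lay below all 3 control libraries. Its change on the log2 scale was -1.01 ± 0.22 (SE, adjusted p = 0.388) for shRNA A and -1.02 ± 0.22 (adjusted p = 0.0776) for shRNA B in edgeR's quasi-likelihood test, so that the targeted transcript itself did not pass the adjusted threshold of 0.05. DESeq2 gave adjusted p = 0.0152 for shRNA A and 0.00174 for shRNA B. Without shRNA B replicate 2, which had the lowest Camta1 level, edgeR gave -1.01 for shRNA A (adjusted p = 0.0150) and -0.81 for shRNA B (adjusted p = 0.0367) on the same scale. Library totals lay between 29123744 and 38189288 counts, and single members had between 168 and 6736 counts in a library.

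No member passed the threshold in any contrast with all 9 libraries. For shRNA A minus control, edgeR called 0 of the 10 members, beside 0.0243% of all genes tested. Under shRNA B, edgeR called 0 members against control, beside 1.02% of all genes. For the mean of both shRNAs minus control, 0 members were called, beside 0.0973% of all genes, and between the hairpins (shRNA B minus shRNA A) 0 members, beside 0% of all genes. At an unadjusted p under 0.05 the 4 contrasts held 1, 1, 1 and 2 members in the order given, beside 6.9%, 12.8%, 10.4% and 9.34% of all genes tested. DESeq2 also called 0 members in each, beside 0.262%, 2.35%, 1.48% and 0.748% of all genes. The members with an unadjusted edgeR p under 0.05 were Calb2 in the 3 contrasts with control, and Sst and Vip between the hairpins. In the edgeR fit, 5 members had positive and 5 negative log2 fold changes for shRNA A minus control, with a median of 0.05, beside a median of 0.00023 over all genes tested. Under shRNA B, 2 were positive and 8 negative, with a median of -0.14, beside 0.0013 over all genes. Between the hairpins all 10 were negative, with a median of -0.22, beside a median of 0.0019 over all genes, of which 49.5% were negative. The 2 hairpin contrasts with control share their control libraries, and the contrast between the hairpins shares libraries with both.

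Ranges of CPM that did not overlap between 2 groups were counted too. For shRNA A minus control, 3 members (Pvalb, Sst and Lhx6) lay wholly above control, beside 12.5% of all genes tested that did not overlap in either direction. Of all 16438 genes, 1125 lay wholly above. Set against control, shRNA B had 3 members (Gad1, Gad2 and Calb2) wholly below, beside 18.1% of all genes in either direction and 1459 genes wholly below. Set against shRNA A, shRNA B had 3 members (Gad1, Sst and Vip) wholly below, beside 14.2% in either direction and 1142 genes wholly below. For all 6 knock-down libraries against control, 0 members did not overlap, beside 4.5% of all genes.

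**Figure D1:**
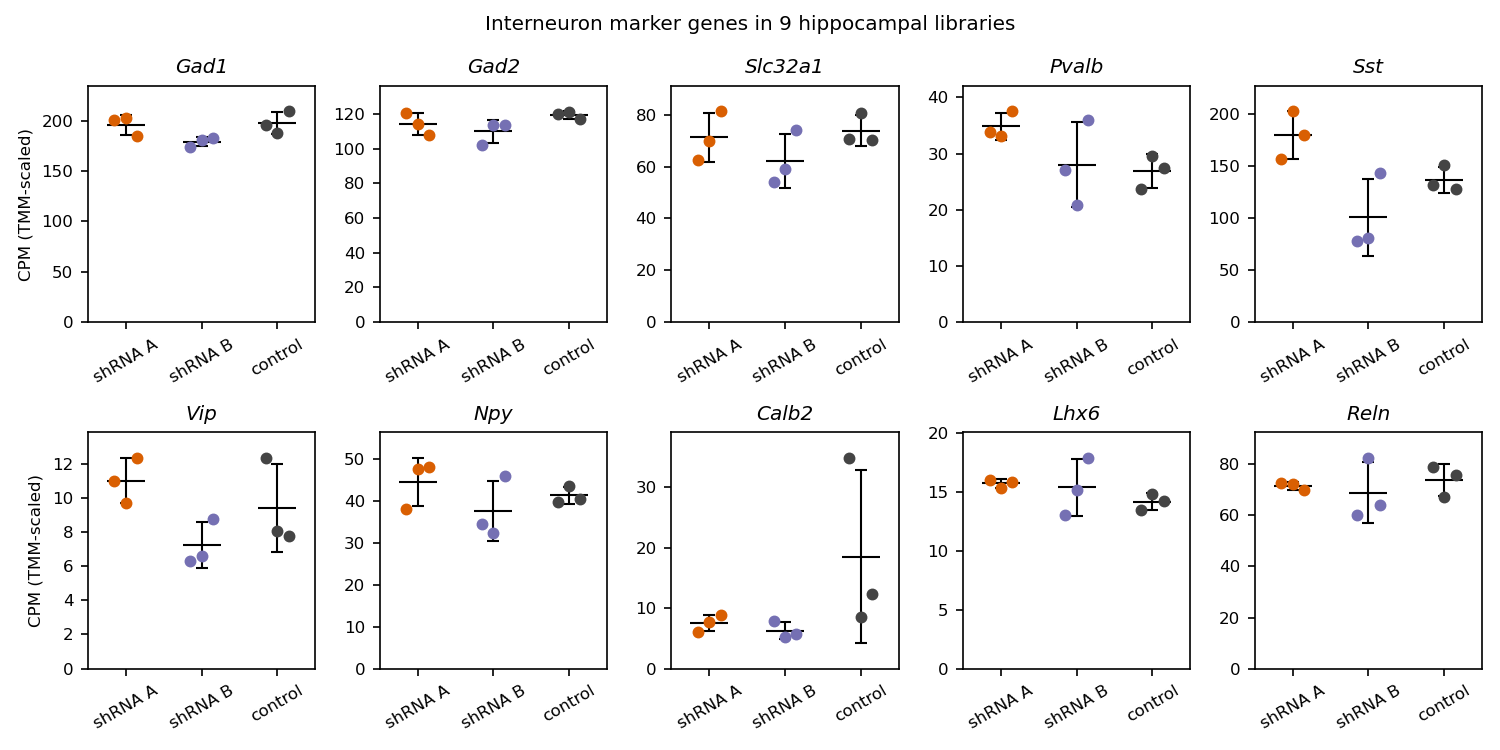
CPM of each of the 10 genes (vertical axes, TMM-scaled, starting at 0) in the shRNA A, shRNA B and control groups; points are libraries in the order of their replicate numbers, and bars are the mean and SD of 3 libraries. Sst in shRNA B holds 2 libraries near 80 CPM and 1 at 143 CPM, and Calb2 in control holds 1 library at 34.9 CPM above 8.47 and 12.3 CPM.

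The GABA synthesis genes varied least, with 1.20-fold for Gad1 and 1.19-fold for Gad2 between the lowest and the highest of the 9 libraries, against 1.37-fold to 6.61-fold for the other members. Gad1 (ENSMUSG00000070880, chromosome 2), whose enzyme GAD67 makes most of the cell's GABA, had 200.4, 203 and 185 CPM in shRNA A libraries, 174, 180.4 and 183 CPM in shRNA B libraries and 196, 187 and 209 CPM in control libraries. The shRNA A libraries lay within or beside the control range, and every shRNA B library lay below every control and every shRNA A library. The shRNA B mean was 179 ± 4.35 CPM, or 90.6% of the control mean of 197 ± 11 CPM (SD, n = 3 each). The log2 fold change was -0.01 ± 0.066 for shRNA A (edgeR adjusted p = 0.979, 95% interval -0.15 to 0.13) and -0.14 ± 0.066 for shRNA B (adjusted p = 0.395, -0.29 to 0.0019).

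Gad2 (ENSMUSG00000026787, chromosome 2), whose enzyme GAD65 sits at nerve terminals, had 120.2, 114 and 108 CPM in shRNA A, 102, 114 and 114 CPM in shRNA B and 119.8, 121 and 117 CPM in control libraries. Again the shRNA B libraries lay wholly below control, by a narrow margin, while shRNA A overlapped it. Its log2 fold change was -0.06 ± 0.067 for shRNA A (edgeR adjusted p = 0.865) and -0.12 ± 0.067 for shRNA B (adjusted p = 0.498). Slc32a1 (ENSMUSG00000037771, chromosome 2), the vesicular GABA transporter, had 62.8, 69.8 and 81.4 CPM in shRNA A, 53.9, 59.1 and 74.0 CPM in shRNA B and 70.5, 80.8 and 70.5 CPM in control libraries. Replicates 1 and 2 of shRNA B were the lowest of the 9 and replicate 3 lay within the control range. The log2 fold change was -0.05 ± 0.12 for shRNA A (edgeR adjusted p = 0.954) and -0.25 ± 0.12 for shRNA B (adjusted p = 0.443, 95% interval -0.52 to 0.026). Exons of Slc32a1 share 697 bases with the antisense gene Gm14205 in GENCODE M21, and the libraries carry no strand, so reads of the pair cannot be told apart.

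In bulk tissue, fewer interneurons and less RNA per interneuron cannot be told apart, for these genes and all that follow.

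Lhx6 (ENSMUSG00000026890, chromosome 2), the transcription factor that MGE-derived interneurons keep into adult life, had 16.0, 15.3 and 15.8 CPM in shRNA A, 13.1, 15.2 and 17.9 CPM in shRNA B and 13.5, 14.9 and 14.3 CPM in control libraries. The shRNA A libraries were tightly grouped just above control, and those of shRNA B spread on either side of it. Its log2 fold change was 0.15 ± 0.11 for shRNA A (edgeR adjusted p = 0.806) and 0.11 ± 0.11 for shRNA B (adjusted p = 0.722). A short non-coding gene on the same strand, Gm27953, shares 104 exon bases with it.

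Pvalb (ENSMUSG00000005716, chromosome 15) marks fast-spiking basket and chandelier cells. It had 33.8, 33.2 and 37.5 CPM in shRNA A, 27.1, 20.9 and 36.0 CPM in shRNA B and 23.7, 29.6 and 27.5 CPM in control libraries. All shRNA A libraries lay above all control libraries, and the shRNA B group held both the lowest and the second highest library of the 9. The shRNA A mean was 34.9 ± 2.34 CPM against 26.9 ± 3.00 CPM in control (SD, n = 3 each), a log2 fold change of 0.37 ± 0.17 (edgeR adjusted p = 0.728, 95% interval -0.0067 to 0.75). For shRNA B it was 0.06 ± 0.17 (adjusted p = 0.931), and it was -0.16 without shRNA B replicate 3 and -0.03 without control replicate 1.

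Sst (ENSMUSG00000004366, chromosome 16), the peptide of dendrite-targeting interneurons such as the oriens-lacunosum moleculare cells, had the largest log2 fold change of the members between the hairpins. It had 157, 203 and 179.7 CPM in shRNA A, 78.1, 81.1 and 143 CPM in shRNA B and 132, 151 and 128 CPM in control libraries. The shRNA A libraries all lay above control, replicates 1 and 2 of shRNA B lay well below it, and shRNA B replicate 3 lay inside the control range. The means were 179.8 ± 23.1 CPM in shRNA A, 101 ± 36.9 CPM in shRNA B and 137 ± 12.5 CPM in control (SD, n = 3 each). Its log2 fold change was 0.39 ± 0.22 for shRNA A (edgeR adjusted p = 0.764, 95% interval -0.12 to 0.91) and -0.44 ± 0.23 for shRNA B (adjusted p = 0.468, -0.96 to 0.073).

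Between the hairpins, Sst had a log2 fold change of -0.83 ± 0.23 (edgeR adjusted p = 0.325, 95% interval -1.35 to -0.32), or 56.1% of the shRNA A mean. This missed the threshold over all genes, as every gene did in that contrast. Over the 15 alternatives the value lay between -1.18 and -0.68, with adjusted p between 0.00182 and 0.856. A single library decided the call. Without shRNA B replicate 3, Sst fell by 1.18 on the log2 scale against shRNA A (adjusted p = 0.00182) and by 0.78 against control (adjusted p = 0.0111). Sst was then the 1 member called in each, beside 110 and 151 of all 16598 genes tested. With all 9 libraries edgeR called 0 and 167 of 16438 genes in these contrasts. Without any other single library it was not called.

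The region before the Sst start site holds the cyclic AMP response element through which somatostatin transcription is known to follow CREB. The calmodulin-binding transcription activators are known, from the CG-1 domain of their plant relatives, for elements with a CGCG core. The 250 bases before the start in the RefSeq promoter table (build GRCm38.p6) are therefore shown for the 3 peptide genes, because Sst and Vip had the largest log2 fold changes of the members between the hairpins and Npy is often made in the same cells as Sst. Sst lies at chr16:23890845-23891094 on the minus strand, Vip at chr10:5638968-5639217 on the plus strand and Npy at chr6:49822460-49822709 on the plus strand. Each runs 5′ to 3′ along the gene's strand and ends at the base before the start. Capitals mark TGACGTCA, the full cyclic AMP response element, or CGCG.
Sst: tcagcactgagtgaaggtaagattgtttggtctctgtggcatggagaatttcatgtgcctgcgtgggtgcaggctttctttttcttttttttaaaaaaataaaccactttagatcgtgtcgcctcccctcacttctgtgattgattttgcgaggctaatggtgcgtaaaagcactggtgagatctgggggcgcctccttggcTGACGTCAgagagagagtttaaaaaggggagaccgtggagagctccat
Vip: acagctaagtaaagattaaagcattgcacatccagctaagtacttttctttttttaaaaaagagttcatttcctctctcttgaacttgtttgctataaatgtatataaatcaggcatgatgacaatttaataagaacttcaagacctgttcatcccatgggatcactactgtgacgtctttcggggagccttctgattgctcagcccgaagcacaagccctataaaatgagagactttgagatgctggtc
Npy: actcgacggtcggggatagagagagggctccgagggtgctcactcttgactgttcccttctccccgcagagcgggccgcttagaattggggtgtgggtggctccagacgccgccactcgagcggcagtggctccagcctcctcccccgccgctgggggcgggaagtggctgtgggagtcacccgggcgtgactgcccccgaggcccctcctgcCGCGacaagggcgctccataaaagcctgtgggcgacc
Sst holds TGACGTCA beginning 48 bases before the start and no CGCG. Vip holds neither of these exact letter strings in this window, and Npy holds 1 CGCG, 37 bases before the start. The Vip window does hold tgacgtct, which differs from TGACGTCA only in its last letter, and near matches were not searched. TGACGTCA and CGCG read the same on either strand and cannot overlap each other. Of all 32851 promoter windows of the same length, 1.55% held TGACGTCA and 33.8% held CGCG. The table had windows for 9 of the 10 members, 12 windows in all, of which 8 held CGCG and 1 held TGACGTCA. Reln had 5 CGCG matches in its window, the most of any member. A match describes letters and does not show binding.

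Vip (ENSMUSG00000019772, chromosome 10), the peptide of CGE-derived cells that mostly inhibit other interneurons, was among the lowest members. It had 11, 9.68 and 12.3 CPM in shRNA A, 6.31, 6.60 and 8.79 CPM in shRNA B and 12.3, 8.05 and 7.78 CPM in control libraries. Every shRNA B library lay below every shRNA A library, and the control libraries overlapped with both groups. Between the hairpins the log2 fold change was -0.61 ± 0.19 (edgeR adjusted p = 0.332, 95% interval -1.02 to -0.20), and over the alternatives it lay between -0.77 and -0.52, with adjusted p between 0.103 and 0.927. Against control it was 0.23 ± 0.19 for shRNA A (adjusted p = 0.828) and -0.38 ± 0.19 for shRNA B (adjusted p = 0.442). Without control replicate 1, the highest of the control libraries, these became 0.48 and -0.13.

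Npy (ENSMUSG00000029819, chromosome 6), a peptide made by many MGE-derived cells, had 38, 47.7 and 48 CPM in shRNA A, 34.5, 32.4 and 45.9 CPM in shRNA B and 39.9, 43.6 and 40.6 CPM in control libraries. Its groups overlapped throughout. Replicate 3 was the highest library of the shRNA B group, as it was for Gad1, Slc32a1, Pvalb, Sst, Vip and Lhx6. For Npy the log2 fold change was 0.11 ± 0.13 for shRNA A (edgeR adjusted p = 0.881) and -0.14 ± 0.13 for shRNA B (adjusted p = 0.731).

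Calb2 (ENSMUSG00000003657, chromosome 8), which encodes calretinin, had the largest differences from control and the widest spread. It had 6.13, 7.75 and 8.80 CPM in shRNA A, 7.83, 5.28 and 5.66 CPM in shRNA B and 34.9, 8.47 and 12.3 CPM in control libraries. Control replicate 1 stood far above the other 8 libraries, with 1029 counts against 266 and 391 in the other control libraries. The control mean of 18.6 ± 14.3 CPM (SD, n = 3) therefore had a coefficient of variation of 76.9%, beside 27.3% for Vip and at most 11.1% for the other members in control. Its log2 fold change was -1.29 ± 0.52 for shRNA A (edgeR adjusted p = 0.720, 95% interval -2.52 to -0.060) and -1.56 ± 0.53 for shRNA B (adjusted p = 0.290, -2.80 to -0.31). Averaged over both hairpins it was -1.42 ± 0.43 (edgeR adjusted p = 0.339). Without control replicate 1 these became -0.46, -0.72 and -0.59, and none passed the adjusted threshold.

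Calretinin in the mouse hippocampus is made by interneurons, but also by mossy cells of the hilus, by immature granule neurons and by Cajal-Retzius cells. The 2 mossy cell markers other than Calb2 itself, Drd2 and Csf2rb2, summed to 5.82 to 6.40 CPM in shRNA A, 4.18 to 6.23 CPM in shRNA B and 9.02, 6.02 and 7.24 CPM in control replicates 1, 2 and 3. The 4 markers of immature granule neurons summed to 51.4 to 58.5, 50.9 to 65.4 and 56.0 to 71.5 CPM in the same order of groups, and the 4 Cajal-Retzius markers to 5.66 to 6.43, 5.47 to 8.24 and 5.29 to 7.38 CPM. In control replicate 1 the Cajal-Retzius sum was the lowest of the 9 libraries, at 5.29 CPM, and the immature granule sum was 70.7 CPM. Nr2f2, a transcription factor, had 9.75 to 11.8 CPM in the 6 knock-down libraries, 30.2 CPM in control replicate 1 and 15.8 and 14.9 CPM in the other control libraries. The receptor gene Kit had 43.5 to 62.1 CPM in the knock-down libraries, 112 CPM in control replicate 1 and 70.5 and 49.4 CPM in the other control libraries. Markers of meninges and fibroblasts summed to 16.4 to 22.9 CPM in the knock-down libraries, 47.2 CPM in control replicate 1 and 22 and 27 CPM in the other control libraries. Their part in the Calb2 values was not tested.

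Reln (ENSMUSG00000042453, chromosome 5), secreted in the adult hippocampus by interneurons of the dendritic layers and by Cajal-Retzius cells, had 72.6, 72.3 and 69.9 CPM in shRNA A, 60.2, 82.6 and 63.9 CPM in shRNA B and 78.8, 67.1 and 75.8 CPM in control libraries. Its groups overlapped, and its shRNA B group held both the lowest and the highest library. The log2 fold change was -0.05 ± 0.11 for shRNA A (edgeR adjusted p = 0.952) and -0.10 ± 0.11 for shRNA B (adjusted p = 0.761). Exons of Reln share 246 bases with the antisense gene Gm10475.

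**Figure D2:**
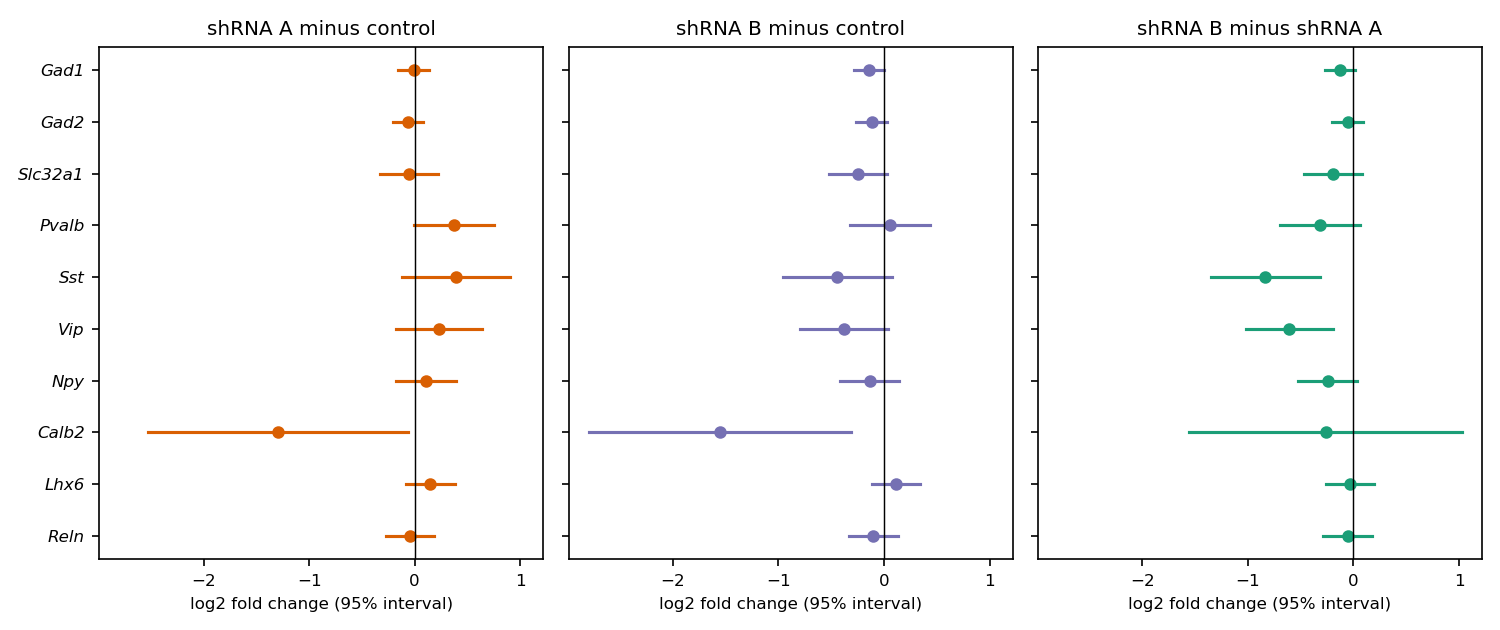
Log2 fold changes (horizontal axes) of the 10 genes, from left to right for shRNA A against control, for shRNA B against control and for shRNA B against shRNA A; points are edgeR estimates and lines their unadjusted 95% intervals. All 10 points lie left of 0 between the hairpins, the intervals of Sst and Vip exclude 0 there, and those of Calb2 exclude 0 in both contrasts with control; no adjusted p was under 0.05.

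**Figure D3:**
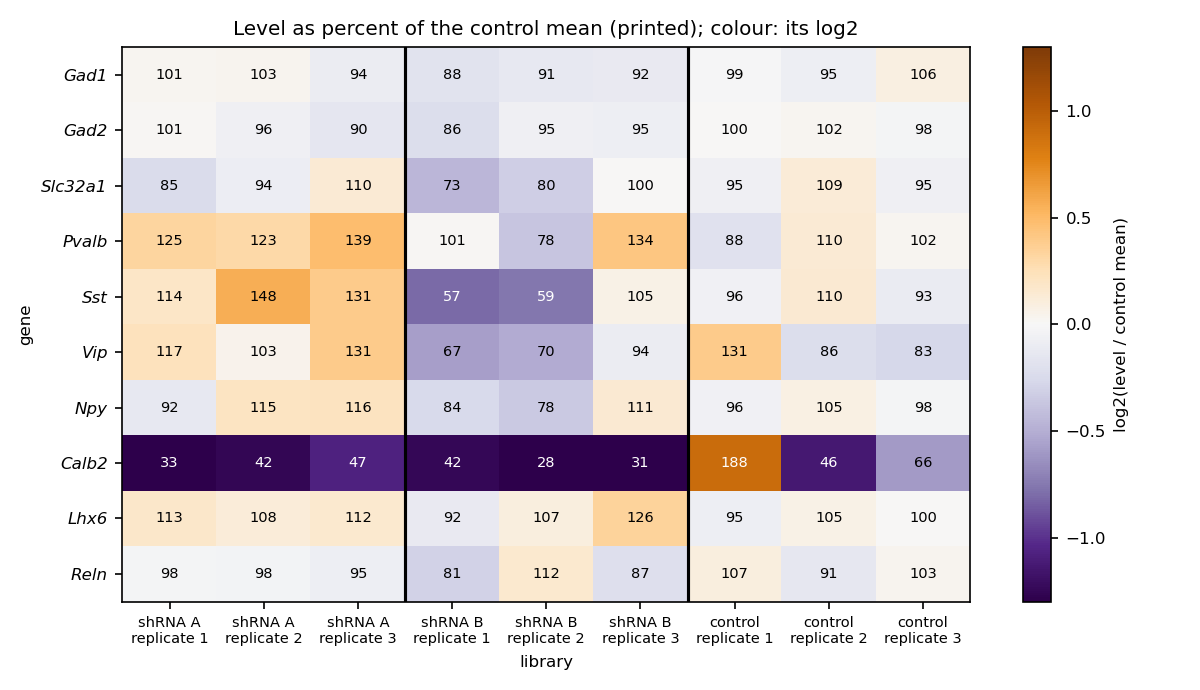
Each library's level as a percent of the control mean of the gene (printed in each cell) and its log2 (colour), with genes as rows and libraries as columns. In shRNA B, replicates 1 and 2 stand at 57.0% and 59.1% for Sst, against 105% in replicate 3, and control replicate 1 stands at 188% for Calb2.

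Summed over the 10 members, the level was 718 to 776 CPM in shRNA A, 557 to 692 CPM in shRNA B and 702 to 722 CPM in control libraries. The shRNA B libraries thus lay below all others in this sum, to which Gad1, Sst and Gad2 give the most. The 6 pan-neuronal markers summed to 5631 to 5984 CPM in shRNA A, 5486 to 5897 CPM in shRNA B and 5791 to 6511 CPM in control, and 4 excitatory neuron markers to 11904 to 13249, 12587 to 12714 and 11347 to 13531 CPM. The 5 astrocyte markers summed to 1391 to 1500 CPM in shRNA A, 1561 to 1804 CPM in shRNA B and 1351 to 1412 CPM in control. Gfap, a gene that reactive astrocytes raise, accounted for the higher shRNA B sum, with 745, 958 and 653 CPM in shRNA B against 434, 537 and 539 CPM in control. Without it the other 4 markers summed to 888 to 929 CPM in shRNA A, 846 to 943 CPM in shRNA B and 812 to 967 CPM in control. The 5 microglia markers summed to 309 to 348, 347 to 393 and 296 to 321 CPM. Oligodendrocyte markers varied widely within each group, with sums of 3472 to 5422, 2768 to 5727 and 2425 to 4034 CPM. Thalamus markers, a sign of tissue from outside the hippocampus, summed to 46.3 to 72.1, 61.8 to 85.8 and 41.3 to 65.3 CPM, and choroid plexus markers to 29.4 to 44.9, 28.4 to 33.9 and 23.2 to 1032 CPM, with control replicate 3 the high one. No marker was at 0 in every library. Their part in the members' values was not tested.

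Levels were also set per kilobase of exon, with all annotated exons of a gene joined. These lengths were 566 bases for Npy, 721 for Sst, 7639 for Gad1 and 23738 for Reln. They can exceed the length of a single transcript, which lowers the value of such a gene, so the order depends on them. By this measure the order in control was Sst, Npy, Slc32a1, Pvalb, Gad1, Gad2, Calb2, Reln, Lhx6 and Vip. Sst led with 190.2 ± 17.4 CPM per kilobase and Npy followed with 73.0 ± 3.50 (SD, n = 3). Slc32a1, Pvalb and Gad1 stood close together at 26.4, 25.9 and 25.9 CPM per kilobase, with overlapping libraries, and Gad2 at 20.3 lay wholly below Gad1. Calb2 averaged 10.6 with libraries from 4.86 to 20.0, which overlapped Gad2 but not Reln. Reln, Lhx6 and Vip closed the order at 3.11, 2.95 and 2.76 CPM per kilobase and overlapped with each other. In shRNA A the order was Sst, Npy, Pvalb, Gad1, Slc32a1, Gad2, Calb2, Lhx6, Vip and Reln, with Pvalb at 33.5 ± 2.25 wholly above Gad1 at 25.7 ± 1.29. In shRNA B it was Sst, Npy, Pvalb, Gad1, Slc32a1, Gad2, Calb2, Lhx6, Reln and Vip, and Sst averaged 139.9 ± 51.1.

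**Figure D4:**
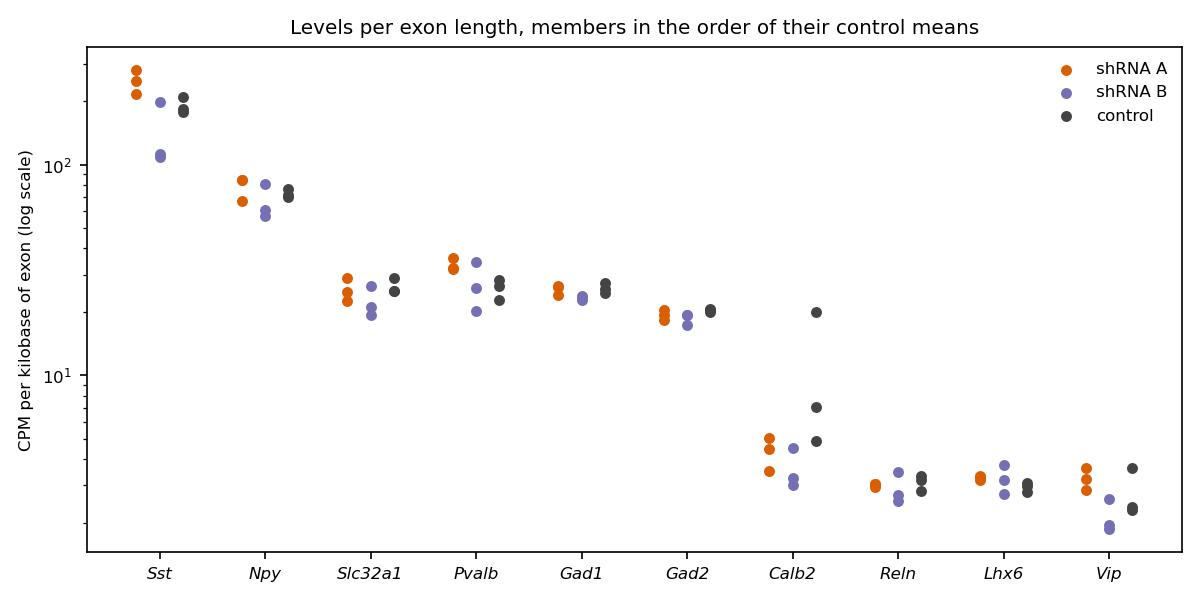
CPM per kilobase of exon (vertical axis, log scale) of each gene in shRNA A, shRNA B and control libraries, with genes in the order of their control means; each point is a library. Sst and Npy stand above the rest in every group, and the last 3 genes lie near 3 CPM per kilobase.

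Other genes of GABA metabolism and transport numbered 8, all tested. Under shRNA A, 3 were positive and 5 negative, with a median of -0.04. There 0 of the 8 were called, beside 0.0243% of all genes in edgeR and 0.262% in DESeq2. Unadjusted, 1 had p under 0.05, beside 6.9% of all genes. Under shRNA B, 1 was positive and 7 negative, with a median of -0.22 beside 0.0013 over all genes. In this contrast edgeR called 1 of the 8, beside 1.02% of all genes, and DESeq2 1, beside 2.35%. At an unadjusted p under 0.05 there were 3, beside 12.8% of all genes. The 1 called was Slc6a13, a GABA transporter known mainly from meninges, liver and kidney. It had 3.74, 4.31 and 3.83 CPM in shRNA A, 3.36, 2.17 and 2.74 CPM in shRNA B and 7.05, 4.71 and 4.69 CPM in control libraries. All libraries of either knock-down group lay below control, and control replicate 1, the library with the highest meninges sum, was the highest. Slc6a13 fell by 0.98 on the log2 scale for shRNA B (SE 0.19, edgeR adjusted p = 0.0376), with adjusted p between 0.000708 and 0.145 over 15 alternatives, of which 6 kept the call. Leaving out any single library other than shRNA B replicate 1 ended it. Without shRNA A replicate 1, 2 or 3, none part of this contrast, Slc6a13 stayed at -0.98. Its edgeR adjusted p was then 0.0625, 0.0590 and 0.0555. For shRNA A, Slc6a13 had -0.47 ± 0.19 (adjusted p = 0.705), and -0.25 without control replicate 1. Abat, the transaminase that breaks down GABA, had log2 fold changes of 0.08 ± 0.12 for shRNA A (adjusted p = 0.906), -0.29 ± 0.12 for shRNA B (adjusted p = 0.329) and -0.37 ± 0.12 for shRNA B minus shRNA A (adjusted p = 0.338). In that last contrast all 8 were negative, with a median of -0.17, and Slc6a13 had -0.51 ± 0.20 (adjusted p = 0.435). There edgeR and DESeq2 called 0 of the 8, beside 0% and 0.748% of all genes. Unadjusted, 3 had p under 0.05, beside 9.34% of all genes. Without shRNA B replicate 3 edgeR called Abat there at -0.52 (adjusted p = 0.0477), and without shRNA B replicate 2 it was at -0.23. With both hairpins averaged, edgeR called 0 and DESeq2 1 of the 8, beside 0.0973% and 1.48% of all genes. Unadjusted, 1 had p under 0.05, beside 10.4% of all genes. Of the 8, 2 were positive and 6 negative, and Slc6a13 had -0.73 ± 0.16 (adjusted p = 0.120).

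A list of interneuron transcription factors besides Lhx6 held 15 genes, 1 of which, Adarb2, encodes an RNA-editing enzyme relative and is a marker rather than a factor. With all 9 libraries none passed in edgeR in any of the 4 contrasts. In the order shRNA A, shRNA B, the mean of both and shRNA B minus shRNA A, the shares of all genes were 0.0243%, 1.02%, 0.0973% and 0%. Unadjusted, 2, 3, 2 and 1 of the 15 had p under 0.05, beside 6.9%, 12.8%, 10.4% and 9.34% of all genes. The medians were 0.03, -0.07, -0.01 and -0.02 in the same order, with 8, 5, 6 and 6 genes positive. DESeq2 called 1 in each contrast with control, beside 0.262%, 2.35% and 1.48% of all genes, and 0 between the hairpins, beside 0.748%. It was Nr2f2, an orphan nuclear receptor of CGE-derived cells. Its mean was 10.5 ± 1.09 CPM in shRNA A, 11 ± 0.680 CPM in shRNA B and 20.3 ± 8.59 CPM in control (SD, n = 3 each), with log2 fold changes of -0.94 ± 0.25 for shRNA A (edgeR adjusted p = 0.509) and -0.88 ± 0.25 for shRNA B (adjusted p = 0.186). Averaged over both hairpins, Nr2f2 had -0.91 ± 0.21 (adjusted p = 0.175). Without control replicate 1, at 30.2 CPM against 15.8 and 14.9 CPM in the other control libraries, these became -0.54, -0.48 and -0.51. Between the hairpins, Satb1 had -0.38 ± 0.13 (adjusted p = 0.384), and without shRNA B replicate 3 edgeR called it at -0.53 (adjusted p = 0.0485). Dlx6 had -0.35 ± 0.23 (adjusted p = 0.684), with -0.11 without shRNA B replicate 2 and -0.55 without shRNA B replicate 3.

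Of 13 other markers of MGE-derived interneurons, 12 were tested and none passed in edgeR in the 4 contrasts with all 9 libraries. Over all genes, edgeR called 0.0243% for shRNA A, 1.02% for shRNA B, 0.0973% for the mean of both and 0% between the hairpins. At an unadjusted p under 0.05 there were 3 of the 12 for shRNA A, 4 for shRNA B, 3 for the mean of both and 4 for shRNA B minus shRNA A, beside 6.9%, 12.8%, 10.4% and 9.34% of all genes. DESeq2 called 1 in each, beside 0.262%, 2.35%, 1.48% and 0.748% of all genes. It was Nos1 in the contrasts with control and Crhbp between the hairpins. The median log2 fold change was 0.27 for shRNA A, with 7 positive and 5 negative, and -0.13 for shRNA B, with 3 positive and 9 negative. Between the hairpins 10 of 12 were negative, with a median of -0.31. Crhbp, a corticotropin-releasing hormone binding protein found in many Sst cells, had 21.8, 19.4 and 17.0 CPM in shRNA A, 7.58, 9.15 and 12.5 CPM in shRNA B and 12, 13.8 and 12.7 CPM in control libraries. As for Sst, the shRNA A libraries lay above control and shRNA B replicate 3 was the highest of its group. Its log2 fold change was 0.59 ± 0.16 for shRNA A (edgeR adjusted p = 0.466), -0.41 ± 0.16 for shRNA B (adjusted p = 0.320) and -0.998 ± 0.16 for shRNA B minus shRNA A (adjusted p = 0.0905), and 4 of 15 alternatives called the last of these. They were DESeq2 (adjusted p = 7.31e-06) and edgeR with no low-count filter (adjusted p = 0.0487), without shRNA B replicate 1 (-0.84, adjusted p = 0.0459) and without shRNA B replicate 3 (-1.22, adjusted p = 0.00182). Without shRNA B replicate 3 edgeR also called Crhbp against control, at -0.62 (adjusted p = 0.0465), and without shRNA B replicate 1 that value was -0.25. Cort, the cortistatin gene, had 0.68 ± 0.15 for shRNA A (edgeR adjusted p = 0.330) and 0.39 ± 0.13 for the mean of both (adjusted p = 0.310).

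Nos1, the neuronal nitric oxide synthase that pyramidal cells also make, had 118, 124 and 109.9 CPM in shRNA A, 112, 150.3 and 116 CPM in shRNA B and 172, 169 and 157 CPM in control libraries. All 6 knock-down libraries lay below control. Averaged over both hairpins, its log2 fold change was -0.45 ± 0.087 (edgeR adjusted p = 0.0902), and 4 of 14 alternatives called it, with adjusted p between 0.000581 and 0.392. Leaving out shRNA B replicate 2 was 1 of the 4 (-0.52, adjusted p = 0.00539). DESeq2 also called Nos1 under each hairpin, at -0.50 for shRNA A (adjusted p = 0.00438) and -0.40 for shRNA B (adjusted p = 0.0135). With all 9 libraries edgeR called neither. Tac1 had -0.47 ± 0.17 for shRNA B (adjusted p = 0.276), and -0.29 without shRNA B replicate 2. Syt2 had -0.72 ± 0.34 for shRNA B minus shRNA A (adjusted p = 0.581). Without shRNA B replicate 3 edgeR called it at -1.22 (adjusted p = 0.0288), and without shRNA B replicate 2 it was at -0.47.

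The 12 other markers of CGE-derived interneurons include Cck, Cnr1, Lamp5, Penk, Cxcl14 and Calb1. In bulk tissue, reads of these genes, as of the other lists, can also come from cells other than interneurons. The medians were -0.15 for shRNA A, -0.20 for shRNA B, -0.23 for both averaged and -0.06 for shRNA B minus shRNA A. None of the 12 passed in edgeR, beside 0.0243%, 1.02%, 0.0973% and 0% of all genes in these contrasts. Unadjusted, 2, 2, 3 and 0 had p under 0.05, beside 6.9%, 12.8%, 10.4% and 9.34% of all genes. DESeq2 called 0, 2, 1 and 0, beside 0.262%, 2.35%, 1.48% and 0.748% of all genes, the genes Cnr1 and Htr3a for shRNA B and Cnr1 for the mean of both. Htr3a, the serotonin receptor subunit typical of these cells, had -0.52 ± 0.14 for shRNA B (edgeR adjusted p = 0.122) and -0.39 ± 0.12 for the mean of both (adjusted p = 0.259), which became -0.26 without control replicate 1. Kit had -0.56 ± 0.28 for shRNA A (adjusted p = 0.746), -0.60 ± 0.28 for shRNA B (adjusted p = 0.422) and -0.58 ± 0.23 for the mean of both (adjusted p = 0.449), and without control replicate 1 these became -0.19, -0.24 and -0.21. Crh had 0.55 ± 0.21 for shRNA A (adjusted p = 0.685) and -0.34 ± 0.20 for shRNA B minus shRNA A (adjusted p = 0.657), and Tac2 had -0.32 ± 0.26 in that contrast (adjusted p = 0.751). Tac2 there ranged from -0.66 to -0.06 over the alternatives.

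A list of receptors of the member peptides and of reelin held 13 genes, all tested. In it, Dab1 encodes an adaptor of reelin signalling rather than a receptor. The medians were -0.09 for shRNA A, -0.11 for shRNA B, -0.11 for the mean of both and -0.03 for shRNA B minus shRNA A. Under shRNA B, 2 were positive and 11 negative. In that contrast edgeR called 1 of the 13, beside 1.02% of all genes, and DESeq2 1, beside 2.35%. At an unadjusted p under 0.05 there was 1, beside 12.8% of all genes. The 1 called was Adcyap1r1, the receptor that prefers the related peptide PACAP and also binds vasoactive intestinal peptide. It had 234, 244 and 232 CPM in shRNA A, 213, 194 and 181 CPM in shRNA B and 309.9, 239 and 279 CPM in control libraries. The shRNA B libraries lay below all others, and shRNA A overlapped control. Adcyap1r1 fell by 0.49 on the log2 scale for shRNA B (SE 0.092, edgeR adjusted p = 0.0309), with adjusted p between 6.45e-05 and 0.127 over 15 alternatives, of which 7 kept the call. Leaving out control replicate 1 or 3, shRNA A replicate 1 or 2, or shRNA B replicate 2 or 3 ended it. Without shRNA A replicate 1 or 2, neither part of this contrast, Adcyap1r1 stayed at -0.49 (edgeR adjusted p = 0.0516 and 0.0545). For the mean of both it had -0.36 ± 0.079 (adjusted p = 0.119) and for shRNA B minus shRNA A -0.27 ± 0.092 (adjusted p = 0.366). The somatostatin receptor genes named by the rule did not pass in edgeR with all 9 libraries. Sstr3 had -0.43 ± 0.12 for shRNA A (adjusted p = 0.466), -0.24 ± 0.11 for shRNA B (adjusted p = 0.399) and -0.34 ± 0.098 for the mean of both (adjusted p = 0.243). Without control replicate 3 edgeR called it at -0.58 for shRNA A (adjusted p = 0.0267) and at -0.49 for the mean of both (adjusted p = 0.0309). Sstr1 had -0.34 ± 0.29 for shRNA A (adjusted p = 0.842), and -0.02 without control replicate 1, which was at 28.7 CPM against 16.4 and 16.5 CPM in the other control libraries. Sstr4 had -0.28 ± 0.15 for shRNA B minus shRNA A (adjusted p = 0.638), with -0.44 to -0.13 over the alternatives. In the contrasts other than shRNA B minus control edgeR called 0 of the 13. For shRNA A, the mean of both and shRNA B minus shRNA A, it called 0.0243%, 0.0973% and 0% of all genes. Unadjusted, 3, 2 and 2 of the 13 had p under 0.05, beside 6.9%, 10.4% and 9.34% of all genes. DESeq2 called 0, 1 and 0 of the 13 there, beside 0.262%, 1.48% and 0.748% of all genes.

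**Figure D5:**
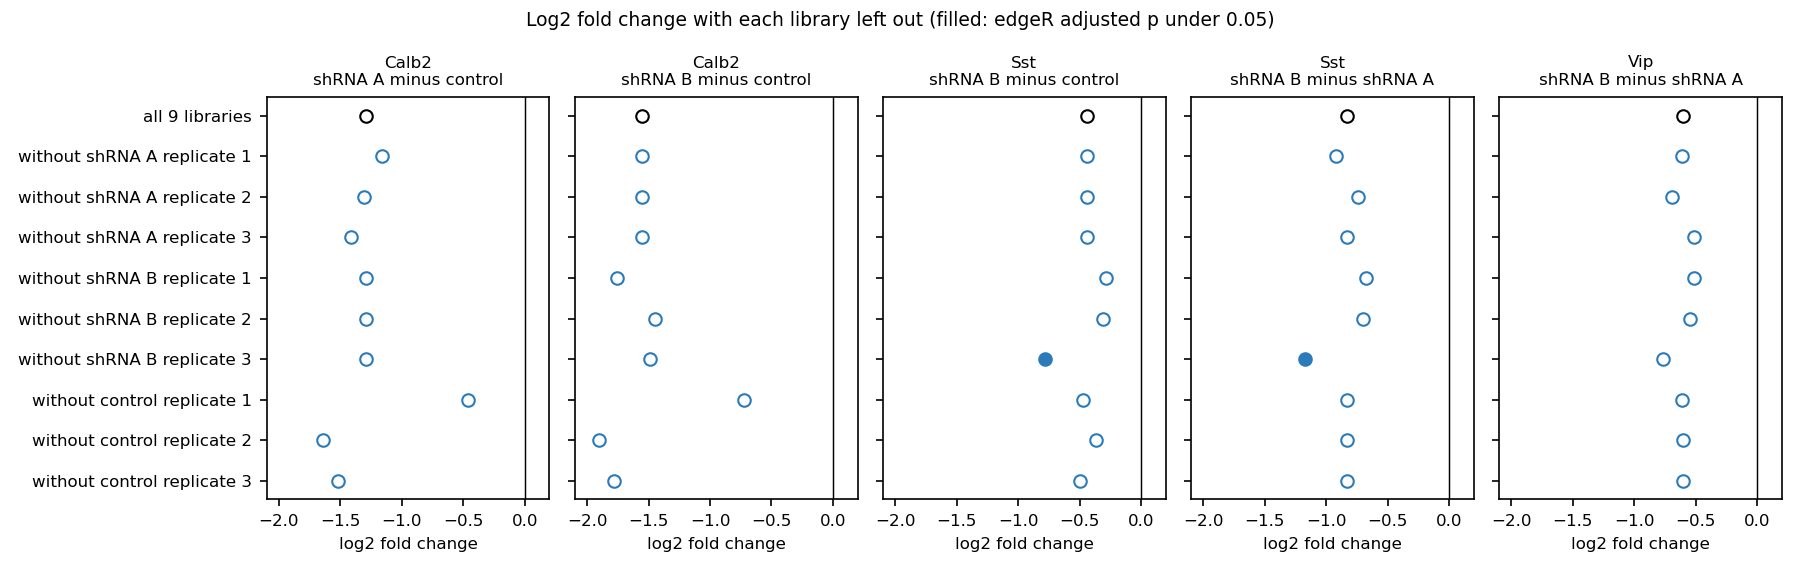
Log2 fold change (horizontal axes) of Calb2, Sst and Vip with all 9 libraries (black) and with each library left out in turn (blue), 1 row for each; filled points have an edgeR adjusted p under 0.05. Sst is filled only without shRNA B replicate 3, at -0.78 against control and -1.18 against shRNA A, and Calb2 moves to -0.46 and -0.72 without control replicate 1.

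Variation between libraries of the same group was described by the correlation of each gene's log2 CPM, centred on its group mean, with the mean of Gad1, Gad2 and Slc32a1 over the 9 libraries. Among the members r was 0.96 for Lhx6, 0.87 for Sst, 0.72 for Npy, 0.54 for Pvalb, 0.35 for Vip, 0.05 for Reln and -0.35 for Calb2. For the 3 genes that form the mean it was 0.17 for Gad1, 0.53 for Gad2 and 0.83 for Slc32a1, so the mean mostly followed Slc32a1. The 5 other genes most like it among 14510 were Tmem132d (r = 0.98), Eefsec (0.98), Mocs1 (0.97), Tyro3 (0.96) and ENSMUSG00000079738 (0.96). The 5 are the highest of 14510 values over only 9 libraries, a ranking that picks high r even among unrelated genes. All genes were measured in the same libraries, so differences in dissection between libraries can enter these correlations, and their part was not tested.

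The authors' deposited table tests each gene once over the 3 groups by a likelihood ratio test. Of 15093 genes with an adjusted p in the authors' deposited table, 2.51% have a value under 0.05, and no member does. The smallest member values in the authors' deposited table are 0.134 for Calb2, 0.140 for Vip and 0.194 for Sst, and the largest is 0.975 for Reln. The authors' deposited table gives log2 fold changes of 0.39 for shRNA A and -0.44 for shRNA B for Sst, 0.23 and -0.38 for Vip, and -1.29 and -1.57 for Calb2.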

How the data were processed

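Total RNA of 9 hippocampal samples, 1.5 µg each, went into polyA libraries without strand. The authors deposited raw counts for each Ensembl gene as whole numbers, per the file headers. They also deposited 2 columns of log2 fold changes, for either shRNA relative to control, and the adjusted p-value of a likelihood ratio test. HTSeq 0.6.1, TopHat 1.4.1, DESeq2 1.4.5, SAMtools 0.1.19 and R 3.1.1 are named in the submitters' processing notes, with build mm9; settings and gene annotation are not given in the sources used here. Every per-sample column matched a label (0 did not).

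Counts as deposited were analysed with edgeR 4.0.16 in R 4.3.3. The steps were filterByExpr by group, TMM scaling and a robust quasi-likelihood test on all 9 libraries, two-sided, with Benjamini-Hochberg adjustment over all 16438 genes and a threshold of 0.05. The standard error (SE) is the log2 fold change divided by the square root of F, and intervals are at 95%. Levels are CPM, counts scaled by TMM-adjusted library totals, in which 1 read stands for 0.0259 to 0.0339 CPM, covering counting error only. Exon lengths and exon overlaps come from GENCODE M21 (GRCm38), another build than the authors', so only lengths and overlaps are used. Alternatives were DESeq2 1.42.0, other scalings, no filter, only the groups compared, the replicate number as a block, and each library left out. The fits were tested on simulated data.

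Members and lists were chosen with earlier results of these data known. All members are named, and of each list the genes called and the 2 largest log2 fold changes in each contrast among genes of at least 1 CPM. Some genes that this rule names are not reported here. The series' design states 3 animals per group; libraries of a group differed by more than counting noise (chi-square per degree of freedom 7.90 to 20.9). Where libraries were not separate animals, p-values would measure technical spread. The labels do not say that replicate numbers pair the samples. Deviations from the group mean correlated from -0.13 to 0.27 for same-numbered libraries and from -0.20 to 0.12 for the others. Between the hairpins the same-numbered values were 0.11, 0.09 and 0.27, against -0.20 to 0.10 for the others. Between either hairpin and control the same-numbered values were -0.13 to -0.01. Whether the numbers mark a shared batch was not tested.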

Additional observations from a re-analysis of the deposited data

Results flagged for a closer look

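Vip lay on opposite sides of the control mean under the hairpins. All 3 shRNA A libraries lay above the control mean of 9.39 CPM and all 3 shRNA B libraries below it, although control replicate 1, at 12.3 CPM, was as high as the highest shRNA A library. Control replicates 2 and 3 averaged 7.92 CPM, and shRNA B replicate 3, at 8.79 CPM, lay above both. Without control replicate 1 the log2 fold changes against control were 0.48 for shRNA A and -0.13 for shRNA B. The log2 fold change for shRNA B minus shRNA A was -0.61. The difference itself was tested in the edgeR fit and did not pass (adjusted p = 0.332, with 0.103 to 0.927 over the 15 alternatives).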

How the results depend on the processing

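Of 590 values of the 40 member contrasts under the alternatives, 569 kept their direction and their side of the threshold, 19 changed sign and 2 passed the threshold, all 21 on leaving out a library. The 2 are Sst without shRNA B replicate 3, at -0.78 for shRNA B minus control and -1.18 for shRNA B minus shRNA A. Members called thus ranged from 0 to 1 in these contrasts and stayed at 0 in the others. Without that library, 151 and 110 of all 16598 genes were called in the 2 contrasts. Leaving out a library gave ranges across 0 for values near 0. For shRNA A minus control these were Gad1 (-0.051 to 0.030), Slc32a1 (-0.16 to 0.031) and Reln (-0.11 to 0.0032). Under shRNA B they were Pvalb (-0.16 to 0.23) and Lhx6 (-0.0086 to 0.22). With both hairpins averaged they were Sst (-0.20 to 0.051), Vip (-0.20 to 0.17) and Npy (-0.097 to 0.037). Between the hairpins they were Lhx6 (-0.16 to 0.074), Reln (-0.21 to 0.033) and, besides the members, Camta1 (-0.19 to 0.20).

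Counts of all genes called moved more. For shRNA A minus control, 4 became 9 with no low-count filter, 43 in DESeq2, 18 with only the groups compared, and 0 to 10 on leaving out a library. Under shRNA B, 167 became 386 in DESeq2, 42 with only the groups compared and 13 to 217 on leaving out a library. With both averaged, 16 became 67 with no low-count filter, 243 in DESeq2, 31 with the replicate block and 1 to 52 on leaving out a library. Between the hairpins, 0 became 21 with no low-count filter, 123 in DESeq2, 1 with the replicate block and 0 to 110 on leaving out a library. The replicate block called 5 genes for shRNA A and 148 for shRNA B, called 0 members, and is given only as an alternative. The cause of these shifts was not tested. With 3 libraries per group, the width of the intervals limits what can be seen, most of all for Calb2.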
